A study of Mus musculus with 6 samples.

Results

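The 10 genes described here belong to the cellular response to low oxygen: the hypoxia-inducible factor (HIF) α subunits Hif1a and Epas1, the HIF prolyl hydroxylases Egln1, Egln2 and Egln3, and the HIF-responsive genes Bnip3, Bnip3l, Ndrg1, Ankrd37 and Ddit4. They were chosen by symbol, with earlier results of these data known, and all 10 were among the 16254 genes of the count table. Eosinophils were grown from the bone marrow of C57BL/6 mice, 6 to 12 weeks old per the study's methods, with IL-5 as the last growth factor, and were treated on day 12 of culture. The 3 EV cultures received extracellular vesicles (EVs) from TH2 cells restimulated through the T-cell receptor, and the 3 sham cultures received medium that no cell had conditioned, processed in parallel. The general protocol for these cells set the EVs at 5e9 per ml, and the sequencing methods name no dose of their own. All RNA was collected after 24 h. The cultures are a bulk model of eosinophils and can hold other marrow-derived cells. The sources used here do not say whether bones of several mice were pooled, or whether same-numbered sham and EV samples shared a marrow culture.

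HIF is a transcription factor made of an oxygen-regulated α subunit and the constant β subunit ARNT. In oxygenated cells the prolyl hydroxylases encoded by the Egln genes mark the α subunit, the VHL ubiquitin ligase complex binds the mark, and the protein is degraded, so that HIF activity is set mainly at the protein level. In low oxygen HIF activates genes of glycolysis, angiogenesis and mitochondrial turnover, among them Egln3, which feeds back on HIF. In granulocytes and macrophages HIF is known for its part in survival, metabolism and inflammatory gene expression, and cytokine and NF-κB signals can raise Hif1a mRNA in normal oxygen. Oxygen tension and HIF protein were not measured in this experiment.

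HIF binds DNA at a core of ACGTG or GCGTG, so the stretches before the RefSeq start sites of the 4 genes that passed the test below are shown, with each match in capitals. Both cores were searched on both strands, so a match on the other strand reads CACGT or CACGC, and CACGTG, the E-box bound by MYC and related factors, counts as a match on each strand. Bases within an annotated exon were left out. The sequences are from RefSeq on GRCm38.p6 and read 5′ to 3′ toward the gene.
Hif1a, chr12:73907617-73907866, plus strand: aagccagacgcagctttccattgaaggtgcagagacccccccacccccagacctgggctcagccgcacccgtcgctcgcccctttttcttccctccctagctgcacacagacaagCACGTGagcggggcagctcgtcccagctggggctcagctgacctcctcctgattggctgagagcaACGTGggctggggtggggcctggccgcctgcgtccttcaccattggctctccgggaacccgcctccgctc
Egln3, chr12:54203875-54204124, minus strand: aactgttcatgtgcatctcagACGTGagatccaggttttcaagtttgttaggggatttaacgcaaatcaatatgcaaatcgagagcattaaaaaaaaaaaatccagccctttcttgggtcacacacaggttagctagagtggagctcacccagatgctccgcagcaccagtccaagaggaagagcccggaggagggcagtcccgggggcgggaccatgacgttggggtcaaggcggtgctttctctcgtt
Bnip3, chr7:138909520-138909756, minus strand: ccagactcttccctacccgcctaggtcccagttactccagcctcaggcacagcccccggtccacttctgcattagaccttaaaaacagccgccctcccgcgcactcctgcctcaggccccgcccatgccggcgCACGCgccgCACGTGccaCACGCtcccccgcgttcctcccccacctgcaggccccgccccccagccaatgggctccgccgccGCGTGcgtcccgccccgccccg
Ddit4, chr10:59951835-59952020, minus strand: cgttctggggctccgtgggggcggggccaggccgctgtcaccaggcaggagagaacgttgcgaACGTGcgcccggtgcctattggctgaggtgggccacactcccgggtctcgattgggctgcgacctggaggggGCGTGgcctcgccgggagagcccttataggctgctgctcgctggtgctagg
The stretch of Egln3 held 1 match and that of Ddit4 held 2, whereas those of Hif1a and Bnip3 held 3 and 5 and each included a CACGTG. In Hif1a the lone ACGTG began 70 bases before the start, and in Bnip3 the CACGTG began 108 bases before it. For Hif1a and Egln3 the stretch after the RefSeq start was not found whole in a GENCODE vM21 transcript. The Hif1a start used here, at 73907867, lies inside the gene span that GENCODE gives, from 73901375 to 73947530. RefSeq windows were matched for 7 of the 10 genes, and Epas1, Bnip3l and Ndrg1 were not matched. All 8 windows of these genes, of which Egln2 has a pair, held between 1 and 5 matches in the 250 bases before the start, where 38.6% of all 32851 promoters held one, 16.6% an ACGTG and 28.2% a GCGTG. Genes that were higher and genes that were lower with EVs thus both had these letters, and a match is not evidence of binding.

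The libraries summed to between 23697620 and 37874426 estimated counts. Eosinophil markers summed to between 942207 and 1186850 normalized counts in sham-treated and between 1344100 and 1501580 in EV-treated cultures, and 8 of 12 were called higher, led by Ccr3, Ear1 and Siglecf at log2 fold changes of 1.13, 0.90 and 0.85. Of the 10 macrophage markers 8 were lower and 1, Adgre1, which mouse eosinophils also express, was higher in EV-treated cultures, with Cd14, Marco and Mertk at -3.38, -2.87 and -2.85. Without Adgre1, a split made after its value was seen, their sum was between 23332 and 38904 in sham-treated and between 8528 and 11733 in EV-treated cultures. Neutrophil markers, with 1 of 8 higher and 5 lower, summed to between 19368 and 23036 in sham- and between 15429 and 19141 in EV-treated cultures, with Ly6g at 2.65, Camp at -2.02 and Mmp8 at -1.68. Mast cell and basophil markers, with 5 of 7 tested higher, summed to between 6261 and 7831 and between 13225 and 15622, with Ms4a2 and Mcpt8 at 2.64 and 2.46 and Cpa3 2.46-fold higher. Stromal and endothelial markers, with 1 of 5 tested higher (Pecam1 at 0.58) and 1 lower (Col1a2 at -2.91), summed to between 17115 and 26536 and between 10416 and 15864. DESeq2 called 0 and limma 3 of them lower. Pecam1 alone gave between 6253 and 6949 of the sham and between 9753 and 10263 of the EV counts. Named after their values were seen, Col1a1 and Col3a1 were at -2.74 and -2.27 without a call. The endothelial genes Cdh5 and Kdr had too few counts to be tested. T cell markers, none of 2 tested called, summed to between 83.8 and 230.4 and between 104 and 123. By edgeR, DESeq2 and limma alike 0 T cell markers were called, and 0 had an unadjusted p under 0.05. No listed marker found in the table was at 0 in all 6 libraries, while Elane, Tpsab1, Cma1, Cd3e and Tek were not in the table. Over all genes tested, edgeR called 12.1% higher and 11.6% lower. In bulk RNA, fewer cells of a type and less RNA per cell cannot be told apart.

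The comparison of EV- with sham-treated cultures covered 13498 genes in edgeR's quasi-likelihood test, with a call where the adjusted p was under 0.01. Group means are given ± SD over 3 libraries (n = 3 in each group). Normalized counts are the counts after scaling for library size. All 10 genes passed the filter on low counts. Hif1a and Egln3 were higher, Bnip3 and Ddit4 were lower, and the other 6 were not called. Of all genes tested 23.7% were called, 12.1% higher and 11.6% lower, so the 2 members called in each direction stand beside a wide change of the transcriptome. Groups did not overlap for 7 of the 10 members and for 49.6% of all genes tested. Where a log2 fold change of 1 or more in size was also required, Hif1a and Egln3 were called higher, as were 3.1% of all genes, and no member was called lower, against 6.35% of all genes. The members' median log2 fold change was -0.12, and that of all genes tested was -0.01.

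**Figure D1:**
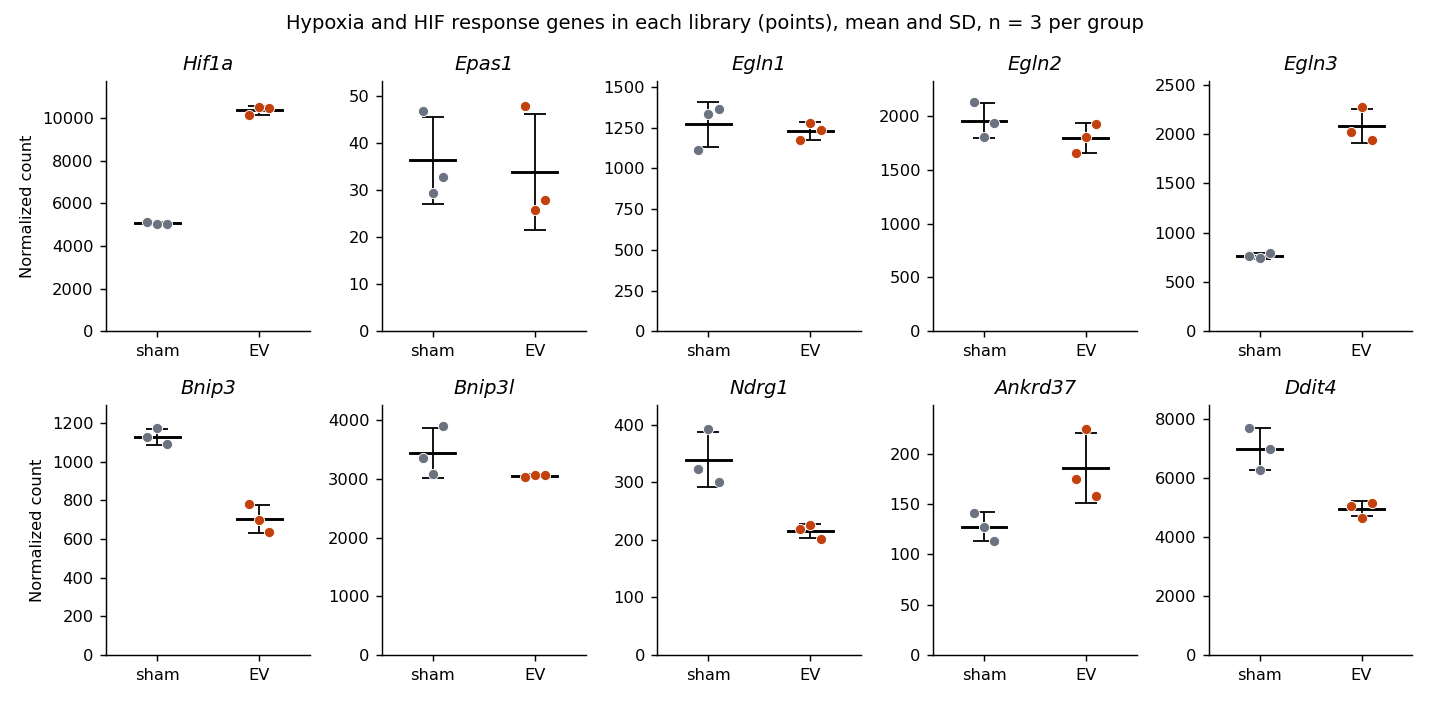
Normalized counts of the 10 genes (y axes, each from 0) in the 3 sham-treated and 3 EV-treated libraries. Points are libraries, and black lines give the mean and SD. Hif1a and Egln3 lay higher in every EV-treated library, Bnip3 and Ddit4 lay lower, and the groups overlapped for Epas1, Egln1 and Egln2.

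Hif1a encodes HIF1α, the α subunit found in most cells (ENSMUSG00000021109, GRCm38 chr12:73901375-73947530). Its normalized count was 5133, 5044 and 5033 in sham replicates 1 to 3 and 10144, 10532 and 10492 in EV replicates 1 to 3. The groups were far apart relative to the spread within either. The mean was 5070 ± 54.9 in sham- and 10390 ± 213 in EV-treated eosinophils, or 2.05-fold higher. On the log2 scale it rose by 1.04 with a standard error of 0.0527 (edgeR adjusted p = 4.82e-07). The annotation has an antisense gene, Gm15283, over 5.60% of the Hif1a exon bases. Among 10445 genes compared, those whose log2 profiles over the 6 libraries were closest to that of Hif1a were Emilin2, Tes and Hectd4. Their root mean square differences were 0.0288, 0.0375 and 0.0388 log2 units, and their log2 fold changes were 1.01, 0.99 and 1.02. With 2 groups, such closeness mostly reflects a like change between them and is not evidence of shared regulation.

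Epas1 encodes HIF2α, which is more restricted to endothelium, macrophages and other specialised cells. It had 46.9, 29.4 and 32.8 normalized counts in sham and 48.0, 25.7 and 27.9 in EV libraries. Replicate 1 was the highest library of both groups, and the groups overlapped. Its log2 fold change was -0.11, with a 95% interval from -1.23 to 1.01 (edgeR adjusted p = 0.89). With between 24 and 52 counts per library, that interval reaches past a log2 change of 1 in either direction. The log2 ratio of Hif1a to Epas1 within a library was 7.13 ± 0.332 in sham and 8.30 ± 0.512 in EV libraries, a difference of 1.16 with no overlap between groups. The exact two-sided permutation p was 0.1, the smallest that 3 against 3 libraries can give.

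The 3 prolyl hydroxylases did not move together. Egln3, which encodes PHD3, the hydroxylase most strongly induced by HIF, had 762, 739 and 798 normalized counts in sham and 2026, 2274 and 1939 in EV libraries. The lowest EV library was far above the highest sham library. The means were 766.5 ± 29.9 and 2080 ± 174, or 2.71-fold higher, which on the log2 scale is 1.44 with a standard error of 0.0847 (edgeR adjusted p = 1.13e-06). It was the largest change among the members. The profiles closest to that of Egln3 were those of Cd24a, Jak2 and Cd86, with root mean square differences of 0.0695, 0.0794 and 0.0833 log2 units. Their log2 fold changes were 1.40, 1.41 and 1.42, and the same limit as for Hif1a holds.

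Egln1, which encodes PHD2, the main oxygen sensor of most cells, had 1112, 1335 and 1365 normalized counts in sham and 1172, 1282 and 1234 in EV libraries. The EV libraries lay within the range of the sham libraries. Its log2 fold change was -0.05, with a 95% interval from -0.26 to 0.17 (edgeR adjusted p = 0.75). Egln2, which encodes PHD1, had 2130, 1810 and 1936 in sham and 1652, 1807 and 1925 in EV libraries, which overlapped. Its log2 fold change was -0.13, with an interval from -0.32 to 0.06 (adjusted p = 0.289). The log2 ratio of Egln1 to Egln3 within a library was 0.72 ± 0.16 in sham and -0.76 ± 0.0921 in EV libraries, with no overlap (exact permutation p = 0.1, again the smallest possible).

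**Figure D2:**
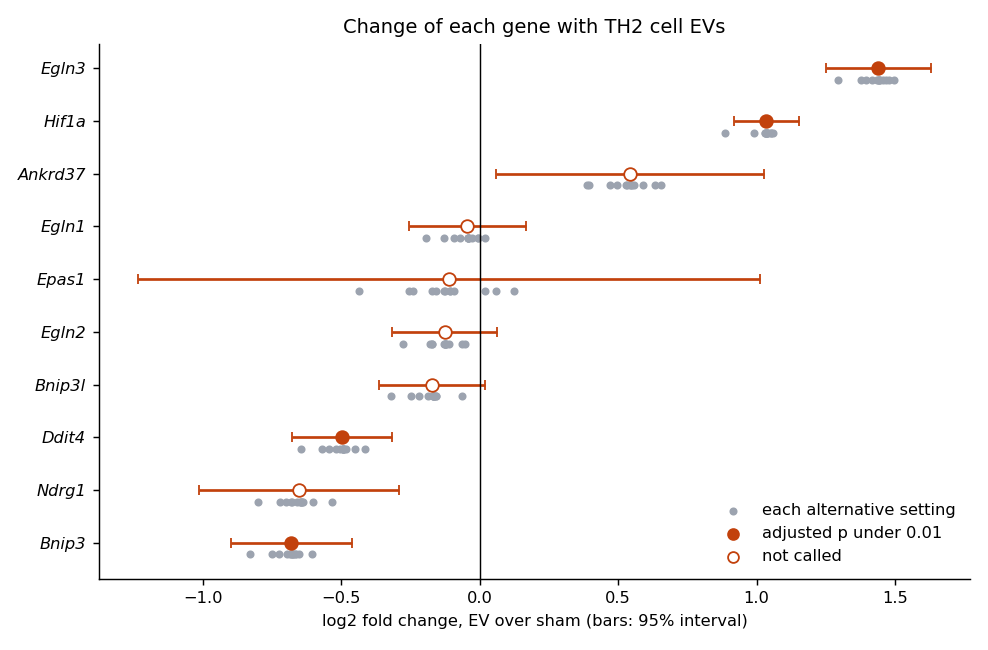
Log2 fold change of each gene in EV- over sham-treated eosinophils (x axis). Orange points and bars give the edgeR value and its 95% interval, filled where the adjusted p was under 0.01, and grey points give the value under each alternative. Egln3 and Hif1a lay at 1.44 and 1.04, and Bnip3, Ndrg1 and Ddit4 between -0.68 and -0.50.

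Bnip3 and Bnip3l encode related proteins of the outer mitochondrial membrane that bind LC3-family proteins and mark mitochondria for autophagy. Bnip3 had 1127, 1173 and 1091 normalized counts in sham and 780, 699 and 637 in EV libraries. Every EV library lay below every sham library. The means were 1130 ± 41.0 and 705.6 ± 71.8, or 0.624-fold, which on the log2 scale is -0.68 with a standard error of 0.0975 (edgeR adjusted p = 0.000398). Of the 31-base words of the Bnip3 transcripts 57.0% also occur in other genes of GENCODE vM21, and 46.7% occur in the long noncoding RNA gene AC160336.1, and an antisense gene covers 22.3% of its exon bases. Neither of these genes is a row of the count table, and how their reads were assigned is not known, so the level of Bnip3 is uncertain.

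Bnip3l had 3356, 3075 and 3904 normalized counts in sham and 3027, 3072 and 3074 in EV libraries. The highest EV library lay just under the lowest sham library. Its log2 fold change was -0.17, with a 95% interval from -0.36 to 0.02 (edgeR adjusted p = 0.151). A processed pseudogene, Bnip3l-ps, shares 23.7% of its 31-base words and had at most 6 counts in any library. The log2 ratio of Bnip3 to Bnip3l was -1.57, -1.39 and -1.84 in sham and -1.96, -2.13 and -2.27 in EV libraries, a difference of -0.52 with no overlap (exact permutation p = 0.1, the smallest possible). Of 16 other mitophagy and LC3-family genes tested, 2 were higher and 3 were lower, beside 12.1% and 11.6% of all genes tested. The higher ones were Bcl2l13 at 0.41 on the log2 scale (edgeR adjusted p = 0.00529) and Tax1bp1 at 0.37 (adjusted p = 0.000354). Map1lc3b, Gabarap and Gabarapl2 of the LC3 family were not called. These genes were named after their values were seen. The lower ones were Gabarapl1, an LC3-family protein, at -1.22 on the log2 scale (edgeR adjusted p = 6.24e-06), and the autophagy receptors Optn at -0.99 (adjusted p = 0.00344) and Sqstm1 at -0.50 (adjusted p = 9.01e-05).

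Ddit4 encodes REDD1, an inhibitor of the growth kinase complex mTORC1 that acts through TSC2 and is induced by hypoxia, glucocorticoids, DNA damage and amino acid stress. It had 7698, 6282 and 6973 normalized counts in sham and 5058, 4656 and 5134 in EV libraries. The groups did not overlap. The means were 6985 ± 708 and 4949 ± 257, or 0.708-fold, which on the log2 scale is -0.50 with a standard error of 0.0803 (edgeR adjusted p = 0.000865). No 31-base word of Ddit4 occurs in another gene. Of 15 other genes of the TSC and mTORC1 axis tested, 3 were higher and 1 was lower, beside 12.1% and 11.6% of all genes. Sesn2, a stress-induced inhibitor of mTORC1, rose by 0.91 on the log2 scale (edgeR adjusted p = 1.24e-05), Txnip, a glucose-responsive regulator that also binds REDD1, rose by 0.68 (adjusted p = 1.97e-05), and Deptor, a subunit that inhibits mTOR, was at -1.90 (adjusted p = 0.000656).

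Inducers of Ddit4 and genes that share them went in both directions. Of these 14 genes 4 were higher and 2 lower, beside 12.1% and 11.6% of all genes. Among these genes of the ATF4, glucocorticoid and p53 responses, the cell cycle inhibitor Cdkn1a was 2.82-fold higher (edgeR adjusted p = 5.5e-07) and Ccng1, a p53 target, 1.71-fold higher (adjusted p = 9.77e-06). Ddit3, which encodes the stress factor CHOP, was at -0.52 on the log2 scale (adjusted p = 0.00327), beside -0.50 for Ddit4. Named after their values were seen, Atf4 rose by 0.29 (edgeR adjusted p = 0.00285), while Trib3, Chac1 and Asns were not called. Nr3c1, which encodes the glucocorticoid receptor, was at -0.30 (edgeR adjusted p = 0.00354) and Trp53, which encodes p53, at 0.12 (adjusted p = 0.209). These were also named after their values were seen.

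Ndrg1 encodes a stress-responsive protein that suppresses metastasis in tumour models and is a classical marker of hypoxia. It had 323, 393 and 301 normalized counts in sham and 220, 225 and 202 in EV libraries, without overlap. It was at -0.65 on the log2 scale (standard error 0.161), with an edgeR adjusted p of 0.0102, just over the threshold. Its adjusted p was 0.00569 with DESeq2, 0.00714 with upper quartile scaling and 0.00366 without scaling factors. It stayed over the threshold at 0.0102 with RLE scaling, 0.0108 with limma and 0.0132 without the filter, and between 0.0115 and 0.056 with 1 library left out. Of its paralogs, Ndrg2 was at 0.61 on the log2 scale (edgeR adjusted p = 0.0888) and Ndrg3 at 0.25 (adjusted p = 0.128), and Ndrg4 had too few counts to be tested. By edgeR, DESeq2 and limma alike 0 of these were called, and 1 was higher at an unadjusted p under 0.05. An antisense gene, Gm17035, covers 6.35% of the Ndrg1 exon bases.

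Ankrd37, a small ankyrin repeat protein gene known as a direct HIF target, had 141, 127 and 113 normalized counts in sham and 175, 225 and 158 in EV libraries. All EV libraries lay above the sham libraries, but EV replicate 2 lay well above the other two. The change was 0.54 on the log2 scale, with a 95% interval from 0.06 to 1.03 (edgeR adjusted p = 0.0792), and it was not called. Lrp2bp, on the opposite strand, covers 22.7% of its exon bases and had at most 19 counts in any library.

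Set against each other per length, as normalized counts per kb of the longest transcript, the members spanned a wide range. Ddit4 was the highest in both groups, at 3980 ± 404 per kb in sham and 2820 ± 146 in EV libraries, which put it at percentile 97.2 and 95.2 of 12960 genes. In sham libraries Hif1a at 1073 ± 11.6, Bnip3l at 1057 ± 129 and Egln2 at 929.6 ± 76.5 per kb followed. Bnip3l overlapped both neighbours, while Hif1a and Egln2 did not overlap. Bnip3, Egln1, Egln3, Ankrd37, Ndrg1 and Epas1 came next in this order, each below the range of the one before it, and Epas1 was at 6.59 ± 1.68 per kb. In EV libraries Hif1a rose to 2199 ± 45.2 per kb, clear of Bnip3l. Egln3 moved from 288 ± 11.2 to 781 ± 65.3 per kb, from percentile 59.8 to 81.6. It then lay above Bnip3 and Egln1 and overlapped Egln2, which was at 851.8 ± 64.9 per kb. These levels rest on the longest annotated transcript and not on the isoforms the cells used.

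**Figure D3:**
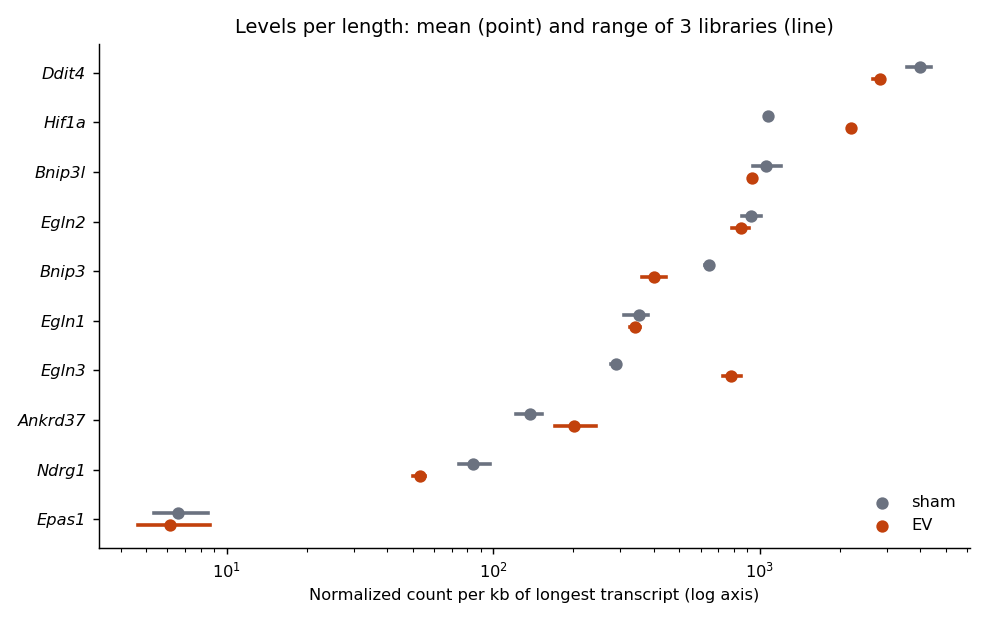
Normalized counts per kb of the longest transcript (x axis, log scale) for the 10 genes, with the mean as a point and the range of the 3 libraries as a line, in sham- and EV-treated eosinophils. Egln3 lay below Egln1 in sham and above it in EV libraries, and Epas1 was the lowest in both groups.

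Of 18 other HIF pathway components tested, 2 were called higher and 0 lower by edgeR, with 6 higher and 1 lower at an unadjusted p under 0.05. DESeq2 called 4 higher and 1 lower, limma 2 higher and 0 lower, and without sham replicate 1 edgeR called 4 higher and 1 lower. Over all 13498 genes tested, edgeR called 12.1% higher and 11.6% lower. At an unadjusted p under 0.05 in edgeR, 2916 of these genes were higher and 3092 were lower. Cited2, an HIF-induced protein that competes with HIF1α for the coactivators CBP and p300, had 2353 ± 246 normalized counts in sham and 7691 ± 444 in EV libraries. This was 3.27-fold higher, or 1.71 on the log2 scale with a standard error of 0.0845 (edgeR adjusted p = 3.85e-07). Os9, which encodes a lectin of endoplasmic reticulum quality control that has been linked to HIF1α degradation, rose by 0.45 (adjusted p = 0.000198). Arnt, the β subunit, was at 0.07 (adjusted p = 0.457), Vhl at 0.33 (adjusted p = 0.0336) and Hif1an, the asparaginyl hydroxylase, at -0.12 (adjusted p = 0.22). These 3 were named after their values were seen.

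Genes known as HIF targets outside the 10 members did not share one direction. Of 24 such genes of glucose metabolism, 11 were higher and 1 was lower, with a median log2 fold change of 0.27. Of 34 other targets tested, 5 were higher and 12 were lower, with a median of -0.31. Over both lists 16 were higher and 13 were lower. Without scaling factors 12 were higher and 16 lower, which turns the balance, and without EV replicate 3 the number called lower was 8. Both lists stand beside the 12.1% and 11.6% of all genes called higher and lower. They were written with earlier results of these data known, so these counts are a description and not a test.

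**Figure D4:**
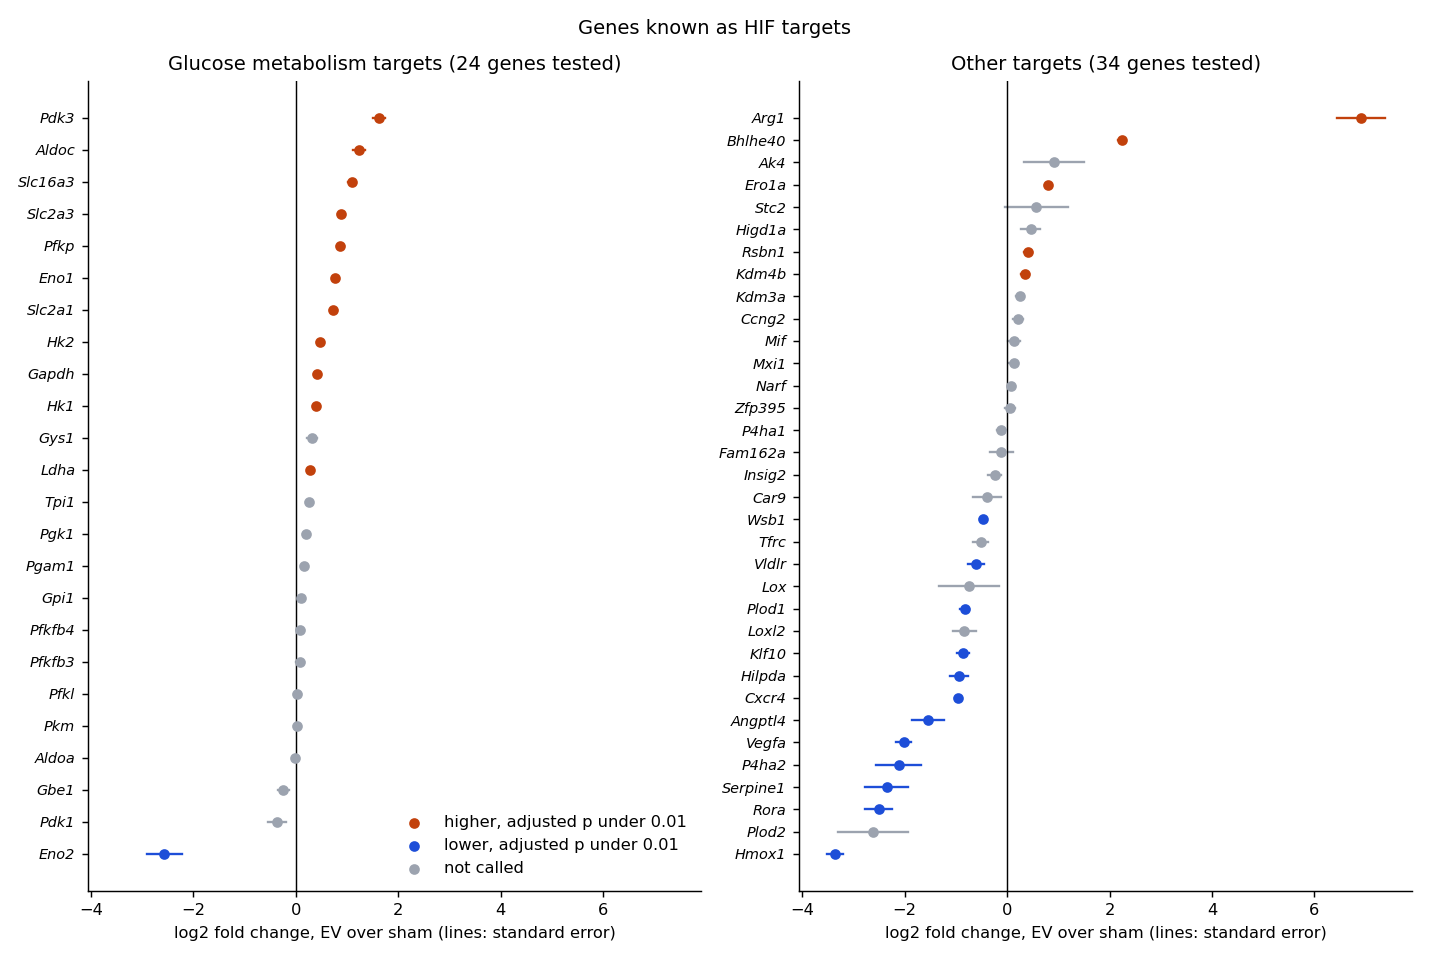
Log2 fold change in EV- over sham-treated eosinophils (x axis) of genes known as HIF targets, with the standard error as a line. Left, 24 genes of glucose metabolism, and right, 34 other targets. Orange marks genes higher and blue genes lower at an adjusted p under 0.01. The left panel holds 11 genes called higher and Eno2 called lower, and the right panel runs from Hmox1 at -3.36 to Arg1 at 6.91.

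Among the glucose metabolism targets, Pdk3, a mitochondrial kinase that inhibits pyruvate dehydrogenase and so the conversion of pyruvate to acetyl-CoA, had 716 ± 126 normalized counts in sham and 2196 ± 15.3 in EV libraries, or 1.62 on the log2 scale (edgeR adjusted p = 3.79e-06). The aldolase gene Aldoc rose by 1.23 (adjusted p = 3.29e-05). Eno2, an enolase typical of neurons, went the other way, from 137 ± 31.2 to 23.0 ± 4.87, at -2.57 (adjusted p = 0.000264). The glucose transporter gene Slc2a1 rose by 0.73 (adjusted p = 2.61e-05), while Pdk1, a classical target of the same kinase family as Pdk3, was at -0.37 (adjusted p = 0.135). Both were named after their values were seen.

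Among the other targets, Arg1, the arginase of alternatively activated myeloid cells, had 0, 13.5 and 21.9 normalized counts in sham and 1054, 1463 and 1395 in EV libraries, or 6.91 on the log2 scale (edgeR adjusted p = 2.61e-06). Hmox1, the heme-degrading enzyme, had 17395 ± 3623 in sham and 1688 ± 187 in EV libraries, or -3.36 on the log2 scale (adjusted p = 2.27e-07). Rora, a nuclear receptor, was at -2.51 (adjusted p = 4.56e-05). The next 3 were named after their values were seen. Vegfa, the angiogenic growth factor, had 1321, 1615 and 1852 in sham and 405, 446 and 333 in EV libraries, or -2.01 on the log2 scale (adjusted p = 4.37e-06). Hilpda, a lipid droplet protein, was at -0.94 (adjusted p = 0.00198), and Bhlhe40, a transcriptional repressor that cytokines also induce, rose by 2.24 (adjusted p = 2.74e-08).

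The macrophage markers moved with Vegfa, Hmox1 and Rora, with 8 of 10 lower and a median log2 fold change of -2.52, and their part in these results was not tested. Sham replicate 1 had the lowest sum of the macrophage markers without Adgre1 among the sham libraries, at 23332 against 36494 and 38904, and also the lowest Vegfa, Hmox1 and Rora. Over all 13 alternatives the log2 fold change was 0.89 to 1.06 for Hif1a, 1.29 to 1.49 for Egln3, -0.83 to -0.61 for Bnip3 and -0.65 to -0.42 for Ddit4, and each stayed at an adjusted p under 0.01. Without scaling factors the median log2 fold change of all genes was -0.16, and 30.7% of calls were higher in place of 50.9%.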

How the data were processed

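Poly(A)-selected RNA of 6 samples of mouse bone marrow-derived eosinophils was sequenced. Per the labels, the authors' processing used FastQC, Cutadapt, Salmon and DESeq2 and the build mm10. Versions, annotation and strandedness are not given in the sources used here. The authors deposited estimated counts per gene symbol, which need not be whole. Their normalized counts and their table of fold changes, p-values and a test statistic were not used.

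Groups and replicate numbers came from the sample titles. The estimated counts were rounded, scaled by TMM, filtered with filterByExpr and tested with edgeR 4.0.16 in R 4.3.3 (quasi-likelihood, Benjamini-Hochberg over all genes tested, call at an adjusted p under 0.01). Standard errors are the log2 fold change over the square root of F. DESeq2 1.42.0 and limma 3.58.1 gave alternatives. The code was tested on simulated data. Within each group, replicate libraries differed by 8.37 to 31.8 times the sampling noise (chi-square per gene), so none was another library sequenced again. This measure cannot tell separate preparations of the same culture from separate cultures. The sample titles call the libraries biological replicates. P-values measure the spread between these libraries, whether or not each came from a separate marrow culture.

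Gene lists were written from general knowledge. The 10 members and all lists were chosen with earlier results of these data known. Named are the members, the 3 called genes of each other list with the largest absolute change, and the 3 genes with a mean normalized count over 100 closest in profile to Hif1a and to the most changed member. Ratios had a pseudocount of 0.5. Transcript lengths, shared words, overlaps and gene positions are from GENCODE vM21 (GRCm38, the same assembly as mm10), and promoters from RefSeq GRCm38.p6. Strandedness being unknown, sense and antisense reads cannot be told apart.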

Additional observations from a re-analysis of the deposited data

How the results depend on the processing

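The 10 log2 fold changes were recomputed under 13 alternatives each, and 122 of the 130 values kept both their direction and their side of the threshold. Ndrg1 passed the threshold at -0.80 without scaling factors, -0.70 with upper quartile scaling, -0.65 with DESeq2 and -0.65 with the replicate block (edgeR adjusted p = 0.00912). With 1 library left out, Epas1 ranged from -0.44 to 0.12 and Egln1 from -0.13 to 0.02 (0.0185 without sham replicate 3), changing sign without being called. The members called higher stayed at 2 in all 15 alternatives; those called lower ranged from 0, where a log2 fold change of 1 in size was also required, to 3. HIF pathway components called higher were 4 with DESeq2, 6 at an adjusted p under 0.05, 1 with the fold requirement and 2 to 4 with 1 library left out; those called lower were 1 without scaling factors, with upper quartile scaling, with DESeq2 and at an adjusted p under 0.05, and 0 to 1 with 1 library left out. HIF targets called higher and lower were 12 and 16 without scaling factors, 5 and 7 with the fold requirement, and 13 to 17 and 8 to 14 with 1 library left out. Fewer genes can pass where a fold is also required, and for the other changes the cause was not tested. A pseudocount of 1 left the 3 ratio differences between members at -0.52, 1.16 and -1.48. The sign of these differences with a library left out, and the mean of same-numbered differences, are fixed by groups that do not overlap and by arithmetic, and say nothing of stability. The deviations of same-numbered libraries correlated at 0.117, 0.0846 and 0.0371 across genes. The libraries were not treated as pairs because not every correlation was over 0.1, although 5 of 6 libraries correlated best with their own number, a hint of pairing from the data. With the replicate block 2 members were called higher and 3 lower. Depth limits Epas1, at 24 to 52 counts per library.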
